A study of Ovis aries with 2 samples.

Results

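PAX3, MEOX1, MEOX2, TCF15, FOXC1 and FOXC2 are transcription factors of the paraxial mesoderm, and they were followed here across the cells of sheep embryos at embryonic day 16. They were taken by gene symbol, and 5 of the 6 had a feature among the 26478 genes. FOXC1 was not analysed here. A cell was called positive for a gene when it held at least 1 UMI (unique molecular identifier, a tag that marks an RNA molecule) of it. PAX3-positive cells were further divided by MEOX1, a marker of somites, and SOX2, a marker of neural tissue.

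Paraxial mesoderm forms from progenitors at the caudal end of the embryo, passes through an unsegmented presomitic state, and is then cut into somites, the blocks that give rise to vertebrae, skeletal muscle and dermis, including those of the tail. MEOX1, MEOX2 and TCF15 act in the formation and patterning of somites, and the forkhead factor FOXC2 acts in paraxial mesoderm and in the vascular and kidney lineages. PAX3 is used in more than 1 lineage, since it is present in the presomitic mesoderm and the early somite, where it precedes the muscle programme, and also in the dorsal neural tube and the neural crest.

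The study set the Hulunbuir Short-tail breed against Ujumqin sheep, a fat-tailed breed with a long tail that served as the control. Whole embryos of 16 days were freed of extraembryonic tissue, digested and measured as 1 pooled library per breed by a droplet method that reads the 3′ end of each RNA. The ewes of both breeds were adults of the same age, and progesterone and PMSG had been given to time their oestrus. Red blood cells were lysed during preparation of both suspensions. The design text gives an n of 3 per group without saying what it counts, and cells cannot be assigned to embryos. There was therefore no replicate check, no test between the breeds was possible, and breed and library cannot be told apart.

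The filter (at least 200 genes and under 10% mitochondrial UMIs) kept 14554 of 17059 Ujumqin barcodes and 9583 of 10709 Hulunbuir barcodes, with a median of 9519 and 11879 UMIs per cell. The files shared 61 barcodes. The libraries differed in makeup, since 5017 Ujumqin cells, in 4 clusters with 6 to 8 erythroid marker genes each, and 0 Hulunbuir cells were erythroid-like. Outside them, the median depth of the Ujumqin cells was 1822 UMIs. Levels are therefore given as UMIs of a gene per 1000000 UMIs of all genes (CPM) outside the erythroid-like cells unless stated otherwise, and all intervals are exact 95% intervals that cover counting error only.

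PAX3 was the most abundant of the 5 genes by UMI count in both libraries. In the Ujumqin library it stood at 2.48 CPM (2.19 to 2.80), with 266 UMIs in 138 cells. In the Hulunbuir library it stood at 10.9 CPM (10.4 to 11.5), with 1404 UMIs in 780 cells. The level was thus 4.40 times as high in the Hulunbuir library (log2 fold of 2.14, interval 1.95 to 2.33). A positive cell held 1.93 PAX3 UMIs on average in the Ujumqin library and 1.80 in the Hulunbuir library. The median depth of these positive cells was 13929 and 12667 UMIs, so the Ujumqin ones were not the shallower. Fewer cells with PAX3 and less PAX3 RNA per cell cannot be told apart from the summed level.

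The other somite factors were higher in the Hulunbuir library as well. MEOX1 stood at 2.33 CPM (250 UMIs) in the Ujumqin and 5.78 CPM (744 UMIs) in the Hulunbuir library, a log2 fold of 1.31 (1.10 to 1.52). MEOX2, its paralog, stood at 0.839 CPM (90 UMIs) and 3.21 CPM (413 UMIs), a log2 fold of 1.94 (1.60 to 2.28). The rarest members followed the same direction. TCF15, a helix-loop-helix factor needed for the epithelial form of somites, stood at 0.177 CPM (19 UMIs) and 0.567 CPM (73 UMIs), a log2 fold of 1.68 (0.94 to 2.49). FOXC2 stood at 0.252 CPM (27 UMIs) and 1.10 CPM (142 UMIs), a log2 fold of 2.13 (1.53 to 2.78).

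All 5 measured genes were at least 2-fold higher in the Hulunbuir library, with a median log2 fold of 1.94. Of 13246 genes with at least 20 UMIs, 19.5% were at least 2-fold higher and 5.99% at least 2-fold lower, and their median log2 fold was 0.40. With the erythroid-like cells included, the log2 folds were larger, at 3.099 for PAX3, 2.26 for MEOX1, 2.90 for MEOX2, 2.50 for TCF15 and 3.099 for FOXC2. SOX2, which marks neural cells and stem cells, was 8.85 times as high in the Hulunbuir library (3.21 against 28.4 CPM).

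The share of positive cells depends on depth, so each cell was also thinned to 5000 UMIs. PAX3 was then found in 1.83% (1.40 to 2.34) of 3339 Ujumqin cells and in 4.96% (4.48 to 5.48) of 7540 Hulunbuir cells, against 1.45% and 8.14% before thinning. MEOX1 was found in 1.65% and 2.55%, MEOX2 in 0.659% and 1.46%, and FOXC2 in 0.0898% and 0.756%. FOXC2 rested on 3 and 57 positive thinned cells and TCF15 on 3 and 24. The thinning left out 6198 of 9537 Ujumqin and 2043 of 9583 Hulunbuir cells. The erythroid-like cells should lack these genes, and their share with a UMI gives a background for the Ujumqin library. Free RNA and doublets as its source were not told apart. Among the 5017 of them, of median depth 20474 UMIs, PAX3 was found in 1, MEOX1 in 3 and TCF15 in 2, and MEOX2 and FOXC2 in 0, which allows a share of up to 0.0598%. SOX2 was found in 8 of these cells, with 13 UMIs in all and up to 5 in a cell.

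The cells were clustered without these genes and SOX2, and clusters were named from marker lists where enough markers were present. In the Ujumqin library PAX3, MEOX1 and TCF15 were gathered in a single cluster of 407 cells, cluster 12, which stayed unnamed. It held 84.3% of the PAX3 UMIs, 73.5% of the MEOX1 UMIs and 61.9% of the TCF15 UMIs of the library, but 32.2% of the MEOX2 UMIs and 40.7% of the FOXC2 UMIs. The mesenchyme-like clusters 6 and 10 held 27 and 15 of the 90 MEOX2 UMIs. In cluster 12 PAX3 stood at 31.7 CPM (27.7 to 36.2), MEOX1 at 26.2 CPM (22.6 to 30.3), MEOX2 at 4.09 CPM and TCF15 at 1.83 CPM. CRABP1, COL2A1, CD24 and STMN2 led this cluster together with PAX3 and MEOX1, and its markers were IRX3, FABP7 and NES of the neural tube list. SOX2 stood there at 20.9 CPM, so transcripts of the somite factors and of SOX2 came together in it.

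**Figure D1:**
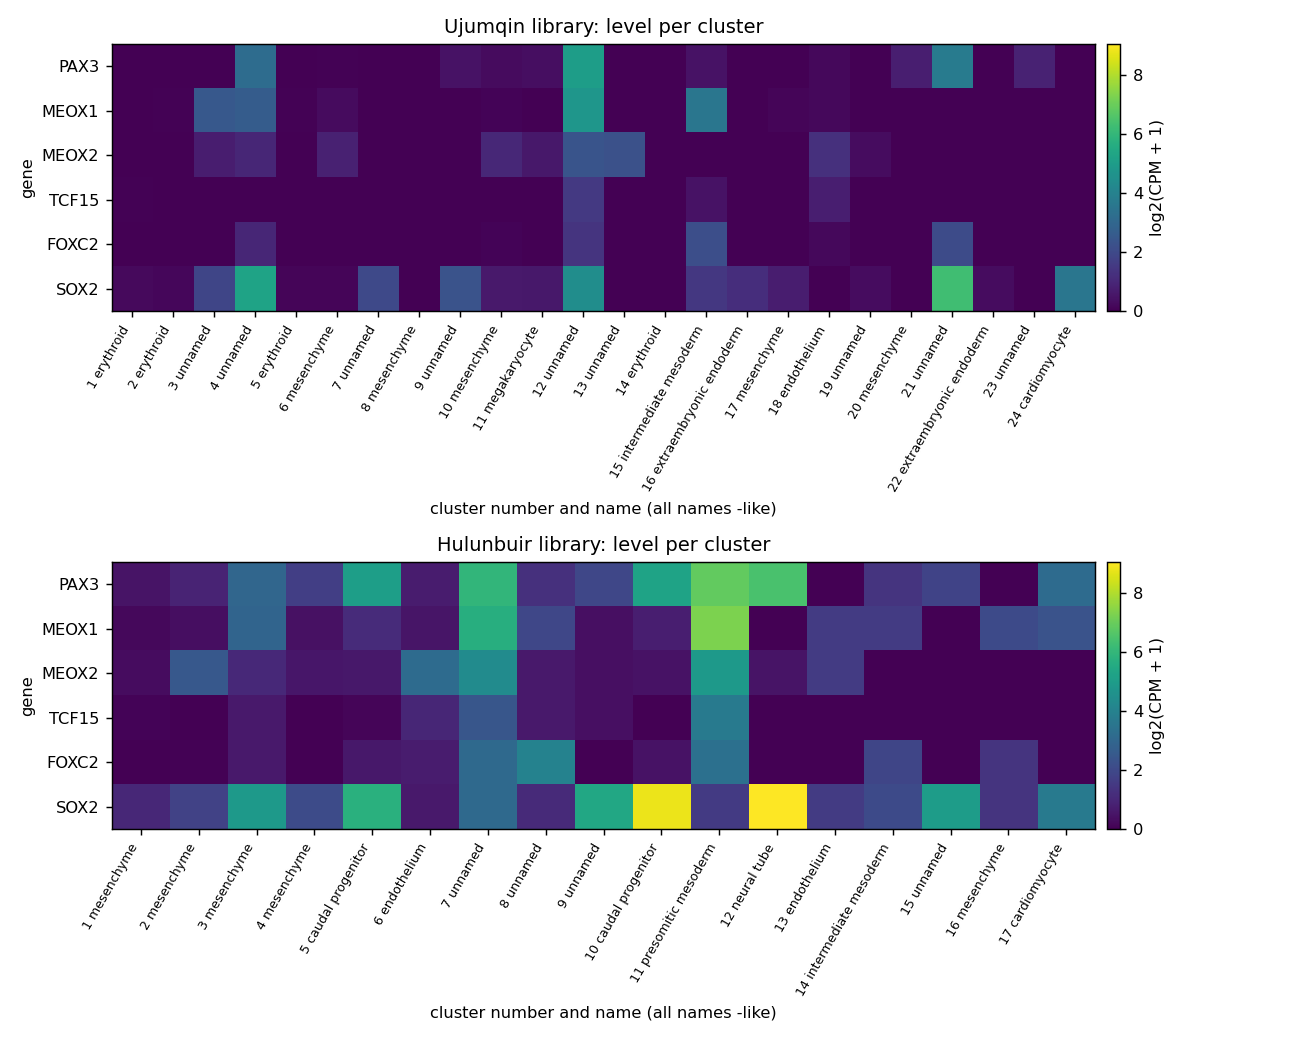
Level of each gene (rows, log2 of CPM + 1) in each cluster (columns, numbered by size, with the name from markers) of the Ujumqin library (top) and the Hulunbuir library (bottom). PAX3 is brightest in Ujumqin cluster 12 at 31.7 CPM and in Hulunbuir clusters 11, 12 and 7 at 117.8, 85.6 and 61.7 CPM, while MEOX1 is bright in clusters 11 and 7 and not in cluster 12.

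In the Hulunbuir library PAX3 was spread over 5 clusters with mesodermal, neural and caudal markers. Its level was highest in the presomitic mesoderm-like cluster 11 at 117.8 CPM (105.1 to 131.6), where 65.8% of cells were positive. Next came the neural tube-like cluster 12 at 85.6 CPM (74.5 to 97.8) and the unnamed cluster 7 at 61.7 CPM (55.1 to 69.0). The caudal progenitor-like clusters 10 and 5 followed at 37.3 CPM (30.5 to 45.1) and 32.3 CPM (28.9 to 35.95), and the intervals of these 2 overlap. These 5 clusters held between 7.55% and 23.7% of the PAX3 UMIs each.

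In the Hulunbuir library MEOX1 was held by fewer clusters than PAX3. It stood at 153.8 CPM (139.2 to 169.5) in cluster 11 and at 50.2 CPM (44.3 to 56.8) in cluster 7, and these held 54.6% and 34.1% of its UMIs. The next cluster, the mesenchyme-like cluster 3, stood at 6.47 CPM. In the Ujumqin library the second level after cluster 12 was 10.9 CPM (7.37 to 15.4) in the intermediate mesoderm-like cluster 15, which held 12.3% of the MEOX1 UMIs. Intermediate mesoderm lies beside the somites and forms the kidney.

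MEOX2 and TCF15 shared the same leading clusters but were also present in endothelium. MEOX2 stood at 28.0 CPM (22.0 to 35.2) in Hulunbuir cluster 11, at 19.4 CPM (15.7 to 23.6) in cluster 7, at 8.05 CPM (6.48 to 9.88) in the endothelium-like cluster 6 and at 4.59 CPM (3.80 to 5.48) in the mesenchyme-like cluster 2. The last of these held 29.1% of its UMIs. TCF15 stood at 12.1 CPM (8.29 to 17.1) in cluster 11, at 4.35 CPM (2.73 to 6.59) in cluster 7 and at 0.973 CPM (0.486 to 1.74) in the endothelium-like cluster 6. In the Ujumqin library the endothelium-like cluster 18 held 10 MEOX2 UMIs and 5 TCF15 UMIs, at 1.38 and 0.691 CPM.

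FOXC2 had an order of its own. In the Hulunbuir library it was highest in the unnamed cluster 8 at 14.95 CPM (11.2 to 19.5), followed by clusters 11 and 7 at 9.09 CPM (5.83 to 13.5) and 7.52 CPM (5.32 to 10.3), whose intervals overlap. Cluster 8 had intermediate mesoderm as its closest marker list without reaching that name, and MEOX1 was low there at 2.77 CPM. In the Ujumqin library FOXC2 stood at 3.50 CPM (1.68 to 6.44) in the intermediate mesoderm-like cluster 15 and at 1.55 CPM (0.775 to 2.78) in cluster 12, and these intervals overlap too.

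Over the 24 Ujumqin and 17 Hulunbuir clusters, other genes had profiles close to those of the members. Likeness was the lower of the Pearson correlations of the libraries over log2(CPM + 1), among 8671 genes, and it is a description over clusters that differ in size and depth. PAX3 was most like ZIC2, a zinc finger factor of dorsal neural tissue and mesoderm, at r = 0.869 in the Ujumqin and 0.927 in the Hulunbuir library, followed by NTN1, LRIG1, SCD5 and SLCO5A1 (lower r of 0.811 to 0.730). MEOX1 was most like EBF2 (0.796 and 0.794), followed by GRP, CER1 and STOX1. TCF15 was most like EBF2, with MEOX1 itself second at 0.690 and 0.887. FOXC2 was most like DACH1 (0.858 and 0.705), and MEOX2 was most like a gene without a symbol, with DEPP1 second at 0.742 and 0.583.

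In 7 pairs of clusters, each cluster of a library was the best match of the other, and they allow the libraries to be compared at a closer level. Ujumqin cluster 12 was paired with Hulunbuir cluster 7 (r = 0.963 over 3223 genes). The paired clusters differed in makeup. The closest marker list was neural tube for cluster 12 (IRX3, FABP7 and NES) and mesenchyme for cluster 7 (TWIST1 and PDGFRA). A different mix of cells and a different level per cell therefore cannot be told apart in this pair. Within this pair the difference of PAX3 was 0.96 on the log2 scale (0.71 to 1.21), from 31.7 to 61.7 CPM, and that of MEOX1 was 0.94 (0.66 to 1.22). MEOX2 and FOXC2 kept differences about as large as outside the erythroid-like cells, at 2.24 (1.63 to 2.90) and 2.28 (1.28 to 3.39). TCF15 differed by 1.25 (0.19 to 2.36), and SOX2 went the other way at -1.47 (-2.03 to -0.95).

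**Figure D2:**
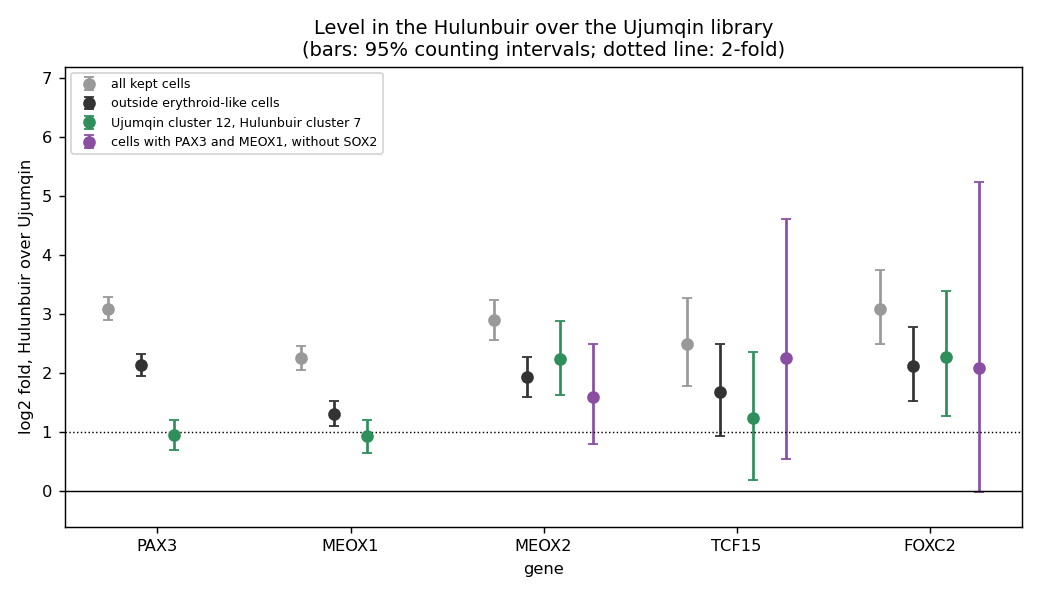
Log2 fold of the level in the Hulunbuir over the Ujumqin library for each gene, in 4 groups of cells (colours), with 95% counting intervals as bars. PAX3 and MEOX1 are left out of the cells chosen by them. PAX3 falls from 2.14 outside the erythroid-like cells to 0.96 in the matched clusters 12 and 7, while MEOX2 and FOXC2 stay at 2.24 and 2.28.

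Other pairs did not all share this direction. MEOX2 was 2.54 higher on the log2 scale in Hulunbuir in the endothelium-like pair 18 and 6 (10 against 91 UMIs) and 2.54 higher in the mesenchyme-like pair 6 and 2 (27 against 120 UMIs). MEOX1 was lower in Hulunbuir in the intermediate mesoderm-like pair 15 and 14, at -2.47 (-4.19 to -1.09), from 31 and 5 UMIs. PAX3 in the pair 4 and 3 had a log2 fold of -0.21, with an interval from -1.06 to 0.64 that holds 0. Hulunbuir cluster 11, with the highest level of 4 of the 5 genes, was in none of the pairs, which needed a mutual best match.

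MEOX1 was found in single cells with PAX3 more often than in cells without it. It was found in 33.3% (25.5 to 41.9) of Ujumqin PAX3-positive cells and in 1.08% of PAX3-negative cells. In the Hulunbuir library it was found in 23.5% (20.5 to 26.6) and in 1.89%. PAX3-positive cells were deeper than negative ones, at medians of 13929 and 1773 UMIs in the Ujumqin and 12667 and 11713 in the Hulunbuir library. In cells thinned to 5000 UMIs the shares with MEOX1 were 18.0% against 1.34% and 20.1% against 1.63%, so the order was the same at equal depth. Read the other way, 31.3% of Ujumqin and 52.4% of Hulunbuir MEOX1-positive cells held PAX3.

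FST, the somite-derived inhibitor of activins, was the partner most often found with MEOX1 among the 19 genes looked at. It was found in 71.4% (63.4 to 78.6) of Ujumqin and 75.6% (70.8 to 80.1) of Hulunbuir MEOX1-positive cells, against 11.3% and 13.8% of MEOX1-negative cells. TCF15-positive cells held MEOX1 in 8 of 19 and 37 of 67 cells. They held MEOX2 in 0 of 19 and 17 of 67. SOX2 went against this pattern in Hulunbuir, where it was found in 2.87% (1.38 to 5.21) of MEOX1-positive and 9.30% of MEOX1-negative cells. It was nonetheless common in Hulunbuir PAX3-positive cells at 32.3%. In Ujumqin SOX2 was found in 1.36% (0.17 to 4.83) of MEOX1-positive and 1.93% of MEOX1-negative cells, so no difference was shown. MSGN1, a factor of the unsegmented presomitic mesoderm, was found in 25 of 780 Hulunbuir PAX3-positive cells and in 0 of 349 MEOX1-positive cells, which allows a share of up to 0.86%.

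**Figure D3:**
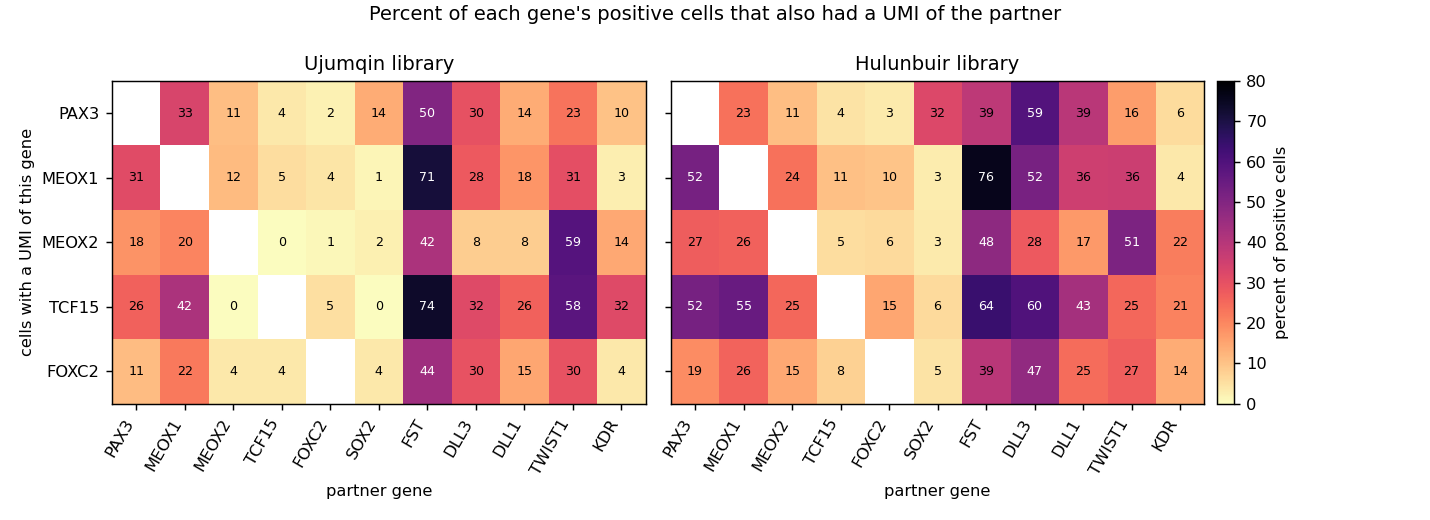
Percent of the cells positive for each gene (rows) that also held a UMI of a partner gene (columns), in the Ujumqin (left) and Hulunbuir (right) libraries, outside the erythroid-like cells. FST is the darkest partner of MEOX1 at 71.4% and 75.6%, and SOX2 is near 0 beside MEOX1 at 1.36% and 2.87% but not beside PAX3 at 13.8% and 32.3%. In MEOX1-negative cells, not drawn, SOX2 was found in 1.93% and 9.30%.

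MEOX2 and TCF15 were found with an endothelial gene in single cells as well. KDR, the VEGF receptor of endothelium, was found in 12 of 83 Ujumqin and 68 of 311 Hulunbuir MEOX2-positive cells (14.5% and 21.9%), against 4.28% and 8.18% of MEOX2-negative cells. At 5000 UMIs it was found in 0 of 22 and 12 of 110 MEOX2-positive cells, so the Ujumqin share was not detectable at that depth. Ujumqin MEOX2-negative cells held KDR in 5.065% there. At full depth it was found in 6 of 19 and 14 of 67 TCF15-positive cells, against 4.32% and 8.53% of TCF15-negative cells. The Ujumqin TCF15-positive cells were far deeper than the negative ones, at medians of 30226 against 1817 UMIs. At 5000 UMIs 1 of 3 of them held KDR, too few to compare. MEOX1-positive cells held KDR in 2.72% and 3.72%, below the 4.40% and 8.80% of MEOX1-negative cells. TWIST1, a factor of mesenchyme and sclerotome, was found in 59.0% and 51.1% of MEOX2-positive cells, against 9.94% and 27.6% of MEOX2-negative cells. At 5000 UMIs these shares were 27.3% against 6.15% and 22.7% against 15.1%.

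Division by MEOX1 and SOX2 separated the PAX3-positive cells into classes that hardly overlapped. Of the 139 Ujumqin PAX3-positive cells, 1 of them erythroid-like, 46 held MEOX1 without SOX2 (33.1%), 19 held SOX2 without MEOX1 (13.7%), 74 held neither (53.2%) and 0 held both, which allows a share of up to 2.16%. Of the 780 Hulunbuir cells, 175 held MEOX1 (22.4%), 244 held SOX2 (31.3%), 353 held neither (45.3%) and 8 held both (1.03%). The first 2 groups are called the MEOX1 class and the SOX2 class below. The 8 cells with both had a median of 19216 UMIs, deeper than the 12218 and 13523 of the classes, and 1 of them was among the highest doublet scores. Doublet scoring did not work in the Hulunbuir library, so whether these 8 cells are doublets cannot be told.

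**Figure D4:**
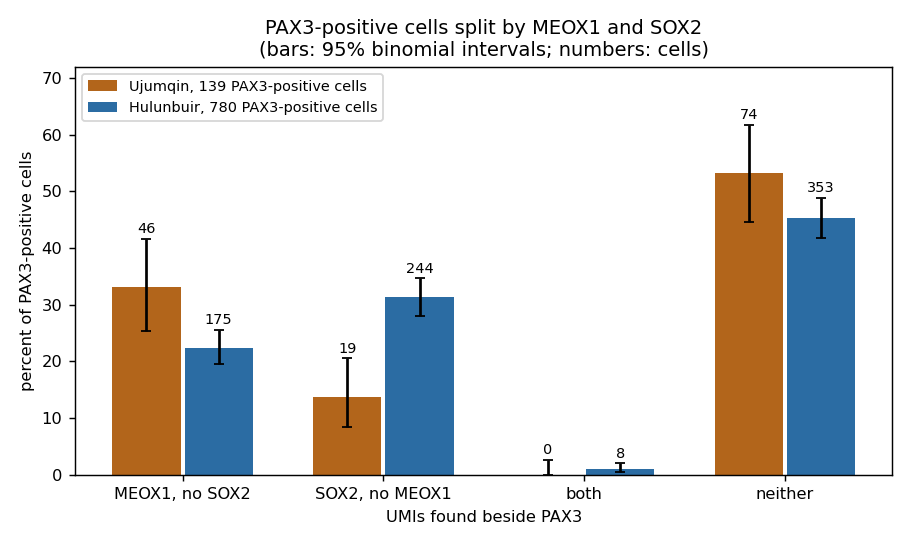
Percent of PAX3-positive cells (y axis) with MEOX1, SOX2, both or neither (x axis) in the Ujumqin and Hulunbuir libraries, with 95% binomial intervals as bars and the number of cells above them. The SOX2 class takes 13.7% in Ujumqin and 31.3% in Hulunbuir, and cells with both number 0 and 8.

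The balance of the classes differed between the libraries mainly on the SOX2 side. SOX2 was found in 13.7% of Ujumqin PAX3-positive cells (8.44 to 20.5) and in 32.3% of Hulunbuir ones (29.0 to 35.7). At 5000 UMIs per cell these shares were 8.20% (2.71 to 18.1) of 61 cells and 22.2% (18.1 to 26.8) of 374 cells, so the order held and the intervals met at their ends. For MEOX1 the order did not hold, with 33.1% against 23.5% at full depth and 18.0% (9.36 to 29.98) against 20.1% (16.1 to 24.5) at 5000 UMIs. Cells with neither were shallower in the Ujumqin library, at a median of 9458 UMIs against 16170 in its MEOX1 class.

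The classes fell into different clusters in the Hulunbuir library and not in the Ujumqin library. Of the Hulunbuir MEOX1 class, 100 cells were in the presomitic mesoderm-like cluster 11 and 67 in cluster 7. Of the SOX2 class, 89 and 70 were in the caudal progenitor-like clusters 5 and 10 and 57 in the neural tube-like cluster 12. In the Ujumqin library cluster 12 held 44 of the 46 cells of the MEOX1 class, 15 of the 19 of the SOX2 class and 44 of the 74 with neither. The split by single genes therefore separated cells that lay together in the Ujumqin clustering.

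The MEOX1 class carried genes of somites that the division did not use. In both libraries FST was far above the SOX2 class, at 621.0 against 8.65 CPM in Ujumqin (log2 ratio of 6.17, 4.80 to 8.05) and at 465.3 against 11.3 CPM in Hulunbuir (5.36, 4.92 to 5.84). TWIST1 had log2 ratios of 2.26 (0.61 to 4.59) and 2.61 (2.02 to 3.24). DMRT2, a factor of the dermomyotome that acts with PAX3, was found in 14 of 46 and 16 of 175 cells of the MEOX1 class and in none of the SOX2 class, and was at least 2.75-fold and at least 11-fold higher against a floor of 3 counts. In Hulunbuir, PDGFRA, a receptor of paraxial mesoderm and sclerotome, had a log2 ratio of 2.62 (1.79 to 3.55). In Ujumqin it stood closer, at 12.4 against 8.65 CPM (16 against 4 UMIs).

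Of the 24 somite genes in the files, 5 had at least 20 UMIs in the Ujumqin classes and 3 were at least 4-fold higher in the MEOX1 class, and in the Hulunbuir library 6 had enough UMIs and 5 were higher. None was at least 4-fold lower. Among all genes with enough UMIs the shares were 1.27% higher and 1.29% lower of 3863 in the Ujumqin library, and 1.11% higher and 2.12% lower of 6732 in the Hulunbuir library. A gene with no UMI in a class counted as past the limit in these shares. Some genes of later somite derivatives had no UMI in the PAX3-positive cells of either library, namely MYOD1, MYOG, LBX1, PAX9, NKX3-2, SIM1 and EN1. MYF6, a muscle regulatory factor, had 7 UMIs in 4 of the 46 Ujumqin cells of the MEOX1 class (5.43 CPM) and 11 UMIs in 9 of the 175 Hulunbuir ones (4.53 CPM).

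Some genes of the presomitic mesoderm, where Notch signalling times segmentation, were also above the SOX2 class. DLL1, a Notch ligand, had log2 ratios of 2.43 (0.45 to 5.54) in Ujumqin and 1.59 (1.29 to 1.89) in Hulunbuir, and its relative DLL3 had 1.02 (0.08 to 2.09) and 2.06 (1.88 to 2.24). RIPPLY2, which ends the presomitic programme at the forming somite border, stood at 177.3 against 1.58 CPM in Hulunbuir (6.81, 5.68 to 8.27) and at 11 UMIs against 0 in Ujumqin. In Hulunbuir, 4 of 8 presomitic genes with enough UMIs were at least 4-fold higher and 1 was lower. The lower gene was CYP26A1, which degrades retinoic acid at the caudal end, at -3.30 (-4.39 to -2.38). HES7, of the same list, was also lower in the Hulunbuir MEOX1 class, by less than 4-fold, at 2.47 against 6.57 CPM (6 against 25 UMIs). MSGN1 had 0 against 5 UMIs there. In Ujumqin, 1 of 3 was higher and none lower.

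**Figure D5:**
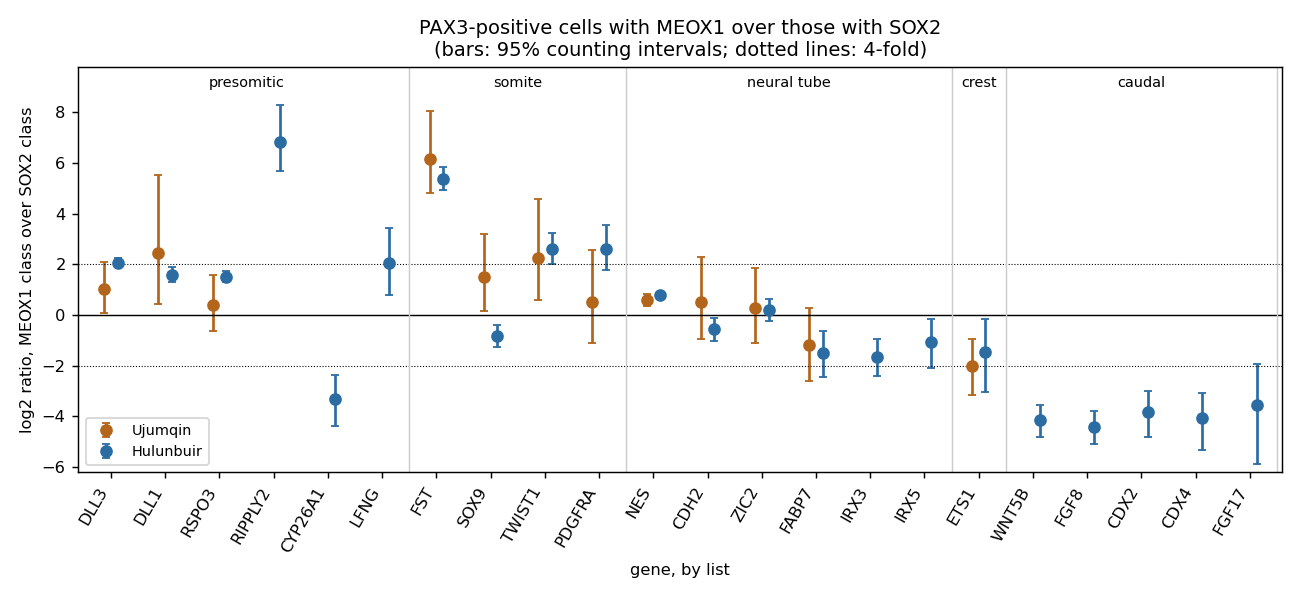
Log2 ratio of the level in the MEOX1 class over the SOX2 class (y axis) for the named genes of 5 lists (x axis) that had at least 20 UMIs and a UMI in both classes, in the Ujumqin and Hulunbuir libraries, with 95% counting intervals as bars. FST stands highest among the somite genes at 6.17 and 5.36, and the caudal genes, measurable in Hulunbuir, lie between -4.41 for FGF8 and -3.55 for FGF17. HES7, named after its values were seen, is not drawn.

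The SOX2 class of the Hulunbuir library carried genes of the caudal growth zone. FGF8 stood at 183.6 CPM there and at 8.64 CPM in the MEOX1 class (log2 ratio of -4.41), WNT5B at 175.7 and 9.87 CPM (-4.15), CDX2 at 71.0 and 4.94 CPM (-3.85), CDX4 at 55.8 and 3.29 CPM (-4.08), and FGF17 at 14.5 and 1.23 CPM (-3.55). These are growth factors and homeobox genes that maintain axial progenitors. All 6 of the caudal genes with enough UMIs were at least 4-fold lower in the MEOX1 class. In the Ujumqin classes 0 of the 8 caudal genes had 20 UMIs.

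Neural tube genes were less clear markers of the SOX2 class than the caudal genes. In Hulunbuir, IRX3 had a log2 ratio of -1.65 (-2.42 to -0.94), FABP7 of -1.50 (-2.45 to -0.65) and IRX5 of -1.08 (-2.10 to -0.16), and PAX6 had 60 UMIs in the SOX2 class and 0 in the MEOX1 class. NES, an intermediate filament of progenitors, was instead higher in the MEOX1 class in both libraries, at 0.58 (0.35 to 0.82) and 0.77 (0.67 to 0.86), and the intervals of ZIC2 held 0 in both. Of the neural tube genes with enough UMIs, 0 of 4 in Ujumqin and 0 of 7 in Hulunbuir were at least 4-fold higher in the MEOX1 class, and 0 and 1 were lower.

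Neural crest genes were lower in the MEOX1 class, by at least 4-fold for 2 of 2 genes with enough UMIs in Ujumqin and 2 of 3 in Hulunbuir. TFAP2B had 30 UMIs in the Ujumqin and 31 in the Hulunbuir SOX2 class and 0 in both MEOX1 classes, at least 27.9-fold and at least 6.61-fold lower against the floor. TFAP2A followed in Hulunbuir, with 27 UMIs against 0. ETS1 had log2 ratios of -2.03 (-3.17 to -0.93) and -1.47 (-3.04 to -0.16). SOX10, which defines crest cells, was found in 6 of the 19 Ujumqin cells of the SOX2 class and in 0 of the 244 Hulunbuir cells, which allows a share of up to 1.23%. The SOX2 classes of the libraries thus held different genes besides, with TFAP2B at 64.9 against 8.15 CPM and FGF8 at 6.49 against 183.6 CPM in Ujumqin and Hulunbuir.

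Across all genes, 49 were at least 4-fold higher in the MEOX1 class in Ujumqin and 75 in Hulunbuir, and 20 were in both lists (40.8% and 26.7% of each). MEOX1 is among them because the division fixes it, which leaves 48, 74 and 19. Of the Ujumqin genes 48 had enough UMIs in Hulunbuir, and of the Hulunbuir genes 35 had enough in Ujumqin. Besides FST, TWIST1 and DMRT2 the genes in both lists included, by UMI count, CER1, CITED1, DEPP1, PDE5A and STOX1, which were chosen after their values were seen. CER1, a secreted antagonist of Nodal and BMP signals, had 38 and 774 UMIs in the MEOX1 class and 0 in both SOX2 classes. At least 4-fold lower were 50 and 143 genes, with 12 in both (24.0% and 8.39%). SOX2 is fixed likewise, which leaves 49, 142 and 11, and 46 and 17 of these lists, SOX2 included, had enough UMIs in the other library. VIM, CRABP1 and CKB led the genes in both lists after SOX2 was set aside, and VIM stood at 952.9 against 4705 CPM in Ujumqin and 706.4 against 3039 CPM in Hulunbuir.

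The HOX genes, whose paralog groups follow position along the body axis, were summed by group. Groups 9 to 13, used in the trunk and tail, stood at 93.0 CPM in the MEOX1 class and 47.6 CPM in the SOX2 class in Ujumqin (log2 ratio of 0.97, 0.30 to 1.70). In Hulunbuir the direction was the opposite, at 152.6 and 227.5 CPM (-0.58, -0.76 to -0.40). Groups 5 to 8 were higher in the MEOX1 class in Ujumqin at 164.4 against 67.0 CPM, and in Hulunbuir stood at 264.1 and 250.9 CPM, with an interval that holds 0. Groups 1 to 4 stood at 96.9 against 82.2 CPM in Ujumqin (0.24, -0.30 to 0.80) and at 111.5 against 204.1 CPM in Hulunbuir (-0.87, -1.08 to -0.67). The SOX2 classes rest on 19 and 244 cells.

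MEOX1-positive cells without PAX3 numbered 102 in Ujumqin and 164 in Hulunbuir, and the somite genes DMRT2, FST and MEOX2 were lower in them than in the MEOX1 class. The somite list as a whole had a median log2 ratio of 0.83 over 6 genes in Ujumqin and 0.07 over 8 in Hulunbuir, against -0.11 and 0.04 over all genes with enough UMIs. DMRT2 was 18 times as high in those with PAX3 in Ujumqin (23 against 2 UMIs) and 17.8 times as high in Hulunbuir (21 against 1 UMI), with log2 intervals of 2.16 to 7.30 and 1.51 to 9.52. ZIC2, of the neural tube list, had log2 ratios of 1.65 (0.49 to 2.91) and 1.72 (1.02 to 2.49), MEOX2 of 2.23 (0.70 to 4.05) and 1.43 (0.79 to 2.11), and FST of 1.28 (1.11 to 1.44) and 0.96 (0.80 to 1.11). TWIST1 did not follow, at 0.19 (-0.44 to 0.80) in Ujumqin and -0.71 (-1.07 to -0.36) in Hulunbuir. Of the cells without PAX3, 26 of 102 in Ujumqin were in the intermediate mesoderm-like cluster 15. In Hulunbuir 85 of the 164 were in cluster 7 and 32 in cluster 11, against 67 and 100 of the 175 with PAX3.

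SOX2-positive cells with PAX3 differed from the 170 Ujumqin and 615 Hulunbuir cells without it in some genes that pattern the neural tube. The neural tube list as a whole had a median log2 ratio of -0.21 over 5 genes in Ujumqin and -0.01 over 8 in Hulunbuir. None of these genes was at least 4-fold higher or lower in either library. PAX6 and IRX3, of intermediate neural tube, were lower with PAX3 in Hulunbuir, at -1.49 (-1.91 to -1.09) and -0.71 (-1.05 to -0.38), while ZIC2 was higher at 1.13 (0.73 to 1.54). IRX3 was also lower in Ujumqin at -1.53 (-3.20 to -0.24), and PAX6 rested on 2 and 21 UMIs there. ETS1 was higher with PAX3 in both libraries, at 2.29 (1.28 to 3.30) and 1.10 (0.24 to 1.96). The caudal genes FGF8, WNT5B, CDX2, CDX4 and FGF17 had log2 ratios between 0.10 and 0.39 in Hulunbuir. In Ujumqin the cells without PAX3 were shallower, at a median of 3665 against 18333 UMIs, and 91 of the 170 were in the unnamed cluster 4.

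The Hulunbuir PAX3-positive cells with neither MEOX1 nor SOX2 held caudal and presomitic genes. CDX2, FGF8 and WNT5B stood at 69.0, 105.8 and 134.3 CPM, each at least 3.61 above the MEOX1 class on the log2 scale, and DLL3 stood at 405.4 CPM, against 374.0 CPM in the MEOX1 class and 89.7 CPM in the SOX2 class. MSGN1 was found in 21 of these 353 cells, in 4 of 244 of the SOX2 class and in 0 of 175 of the MEOX1 class. RIPPLY2 was low, at 11.9 against 177.3 CPM. In all, 160 of the 353 were in the caudal progenitor-like cluster 5, 53 in the unnamed cluster 7 and 43 in the presomitic mesoderm-like cluster 11. The 74 Ujumqin cells with neither held FST at 213.5 CPM and TFAP2B at 33.4 CPM, genes that mark the MEOX1 and the SOX2 class respectively.

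Within the MEOX1 class several presomitic genes were higher in the Hulunbuir library. The share over all genes was not computed for this contrast. RIPPLY2 stood at 8.53 CPM in Ujumqin and 177.3 CPM in Hulunbuir (log2 fold of 4.38, 3.52 to 5.39), DLL3 at 48.1 and 374.0 CPM (2.96, 2.59 to 3.36), RSPO3 at 28.7 and 195.8 CPM (2.77, 2.29 to 3.30) and DLL1 at 23.3 and 109.8 CPM (2.24, 1.69 to 2.84). FST and DMRT2 were lower in Hulunbuir, at -0.42 (-0.55 to -0.28) and -1.05 (-1.97 to -0.13). The members TCF15 and MEOX2 were higher there, at 2.26 (0.56 to 4.62, 3 against 27 UMIs) and 1.605 (0.80 to 2.50, 15 against 86 UMIs).

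The differences of RIPPLY2, DLL3, RSPO3, DLL1, FST and DMRT2 depended on Hulunbuir cluster 11. This cluster held 100 of the 175 cells and was not paired with a Ujumqin cluster. That does not show that Ujumqin lacked such cells. The 44 cells of the MEOX1 class in Ujumqin cluster 12 held 62 DLL3, 30 DLL1, 37 RSPO3 and 11 RIPPLY2 UMIs. Between the 44 cells of Ujumqin cluster 12 and the 67 cells of Hulunbuir cluster 7, an alternative chosen after seeing the data, the log2 fold of RIPPLY2 turned to -3.12 (-8.54 to -0.33, 11 against 1 UMIs), of DLL1 to -1.98 (-3.53 to -0.69), of DLL3 to -0.86 (-1.57 to -0.18) and of FST to 0.22 (0.07 to 0.37). RSPO3 and DMRT2 had -0.62 (-1.50 to 0.22) and 0.21 (-0.74 to 1.15), intervals that hold 0, so no direction was shown. MEOX2 stayed higher in Hulunbuir, at 1.44 (0.48 to 2.47). RIPPLY2 and DLL3 are among the leading genes of cluster 11 and the clustering used them, so leaving it out also removes cells by these genes. It does so on the Hulunbuir side only, so the reversals cannot be read as a difference between like cells. In the same clusters the PAX3-positive cells were 44 with MEOX1, 15 with SOX2 and 44 with neither in Ujumqin, and 67, 8 and 53 in Hulunbuir with 1 that held both.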

How the data were processed

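The deposited files hold whole-number counts of UMIs per gene and barcode, which come unnormalized from the authors' Cell Ranger run on the sheep build rambouillet_v1.0. The file headers give Cell Ranger 5.0.0 and the submitters' processing notes give 3.1.0, with Seurat 3.2.0 and R 3.6.1. The members and gene lists were chosen with earlier results of these data known. A barcode was kept as a cell from 200 genes on and below 10% of mitochondrial UMIs, which left out 2505 Ujumqin and 1126 Hulunbuir barcodes. A symbol with several features, such as MYF6, was taken at its first feature.

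Clustering was done per library on log values scaled to 10000 UMIs per cell. It used 2000 variable genes, from which the members and SOX2 were left out, 30 principal components and 20 neighbours, with a resolution of 1 in leidenalg 0.10.2 (Python 3.11.15, scanpy 1.11.5, scikit-learn 1.9.0, igraph 0.11.9, numpy 2.4.6, scipy 1.17.1, pandas 2.3.3, matplotlib 3.10.9). A marker counted when found in 10% or more of a cluster's cells, at 3 or more times the other clusters' median level (with 1 CPM added) and at 10% or more of the highest level in any cluster. Of 18 lists, the one with the most markers named a cluster when it had at least 3, no tie, and at least as many markers among the 10 leading genes as any other list. Scrublet marked 119 Ujumqin and 2 Hulunbuir cells, which for the latter means that it did not work, and doublets were kept. The Ujumqin share, 0.818%, was also far below the doublet rate that Scrublet was set to expect for that library. Clusters of the libraries were paired by mutual best correlation of log2(CPM + 1), using genes that reached 50 CPM in any of them.

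Levels are summed UMIs over all UMIs of a group of cells, with exact Poisson intervals. Shares have exact binomial intervals and folds exact conditional ones, all at 95% and for counting error only. Against a class at 0, bounds used 3 counts. With 1 library per breed no test was run. Named were the members, SOX2, up to 6 genes per list with the most UMIs in PAX3-positive cells, listed genes 4-fold apart in both libraries and up to 5 most-like genes per member. MSGN1, HES7, MYF6, PAX6, KDR, UNCX, ALDH1A2, genes without a UMI and the genes called in both libraries were named after their values were seen. Some genes that the rule names are not reported here. Scripts were tested on simulated data. Alternatives were a minimum of 500 genes, no cell filter, the 10% highest doublet scores removed, members used for clustering, resolutions of 0.5 and 2, other totals and averages, thinning to 5000 and 2000 UMIs, and at least 2 PAX3 UMIs.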

Additional observations from a re-analysis of the deposited data

Results flagged for a closer look

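Some contrasts ran in opposite directions in the libraries, with counting intervals on opposite sides of 0, and the difference between the libraries was not tested. SOX9, a factor of sclerotome and of neural crest, had a log2 ratio of the MEOX1 class over the SOX2 class of 1.48 in Ujumqin (39 against 5 UMIs) and -0.82 in Hulunbuir (60 against 166 UMIs). In SOX2-positive cells with PAX3 over those without, SOX9 had -1.74 and 0.60, and FGF8 had -2.01 (3 against 56 UMIs) and 0.19. RSPO3, a Wnt agonist of the presomitic mesoderm, had -0.97 and 1.25 in MEOX1-positive cells with PAX3 over those without. The summed HOX groups 9 to 13 had 0.97 and -0.58 in the MEOX1 class over the SOX2 class. In each case the first value is Ujumqin and the second Hulunbuir.

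The barcodes that the cell filter left out also held UMIs of the members above a count of 3. In the 2505 Ujumqin barcodes left out there were 8 UMIs of PAX3 and 4 of MEOX1, and in the 1126 Hulunbuir barcodes 7 of PAX3 and 5 of MEOX2. PAX3 stood there at 2.38 CPM (1.03 to 4.70) and 2.56 CPM (1.03 to 5.28).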

How the results depend on the processing

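All 5 measured members stayed at least 2-fold above Ujumqin in Hulunbuir under all 8 alternatives to the level outside erythroid-like cells. The log2 fold of PAX3 ranged from 2.10 to 2.34, and the highest value, with the mean of the cells' CPM, lay outside its counting interval. The range was widest for TCF15, from 1.56 to 2.48. The shares of PAX3-positive cells with MEOX1 or SOX2 stayed within their intervals with a minimum of 500 genes, no filter or the highest doublet scores removed, and moved with depth. Removing the highest scores cannot check the Hulunbuir shares for doublets, because Scrublet did not work in that library. In Ujumqin it is a weak check, because Scrublet marked far fewer cells than it was set to expect. At 5000 UMIs the share with MEOX1 was 18.0% in Ujumqin and 20.1% in Hulunbuir and that with SOX2 8.20% and 22.2%, and at 2000 UMIs they were 8.82% and 10.3%, and 0% (of 34 cells, with an interval up to 10.3%) and 12.5%. With at least 2 PAX3 UMIs the share with MEOX1 was 53.7% and 38.2%. In the MEOX1 class, limited to the matched clusters 12 and 7, the log2 folds of RIPPLY2, DLL1, DLL3, RSPO3, FST and DMRT2 reversed to -3.12, -1.98, -0.86, -0.62, 0.22 and 0.21, and the intervals of RSPO3 and DMRT2 hold 0. This limit left out Hulunbuir cluster 11, whose leading genes include RIPPLY2 and DLL3. No paired analysis was possible because each breed has 1 library. Depth limits TCF15 and FOXC2 in Ujumqin most, with 19 and 27 UMIs.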

Other observations

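The Hulunbuir PAX3-positive cells with both MEOX1 and SOX2 were spread over 5 clusters, with 3 in the presomitic mesoderm-like cluster 11, 2 in the caudal progenitor-like cluster 10 and 1 each in clusters 5, 7 and 9. PAX3 was also found in 22 cells of the unnamed Ujumqin cluster 4, of median depth 1634 UMIs, and 19 of these had neither MEOX1 nor SOX2. UNCX, a factor of the caudal part of each somite, was found in 9.52% (5.31 to 15.5) of Ujumqin and 4.58% (2.64 to 7.34) of Hulunbuir MEOX1-positive cells, against 0.224% and 0.292% of MEOX1-negative cells. In cells thinned to 5000 UMIs these shares were 3 of 55 and 5 of 192, against 0.244% and 0.177%. ALDH1A2, which makes retinoic acid in somites and lateral mesoderm, was found in 10.9% and 8.88% of MEOX1-positive cells and in 1.38% and 2.70% of MEOX1-negative cells. Ujumqin MEOX1-positive cells were the deeper ones, at medians of 14367 against 1772 UMIs, and at 5000 UMIs ALDH1A2 was found in 0 of 55 of them and in 26 of 3284 negative cells, so no difference was detectable there. In Hulunbuir it was found in 2.60% and 1.29% at that depth.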
